A study of Oryctolagus cuniculus with 24 samples.

Results

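IL6, IL6ST, IL10 and IL10RA encode a pair of cytokines and a signalling chain of the receptor of each. They were followed in rabbit peripheral blood mononuclear cells (PBMCs), the lymphocytes and monocytes of the blood, after in vitro stimulation. The genes were chosen by name, with no rule on their values, though earlier results of these data were known, and are 4 of the 28882 genes and 9 of the 42089 probes measured on the array. PBMCs came from 4 adult female New Zealand White rabbits (rabbits 1, 2, 4 and 5), with no genetic modification in the labels, and the cells of each rabbit entered all 6 groups, in a medium with bovine serum. They were mock-stimulated with buffer, stimulated with LPS at 1 µg/mL, or stimulated with PMA at 10 ng/mL together with ionomycin at 1 µg/mL, and were harvested after 4 h (T4) or 24 h (T24). Each of the 24 cultures was measured on a one-colour Agilent array of its own. LPS is a bacterial cell wall component sensed mainly by monocytes, whereas PMA activates protein kinase C and ionomycin lets calcium into the cell, which together bypass the antigen receptor of lymphocytes.

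IL6 binds its own receptor IL6R, and the complex signals through gp130, the product of IL6ST, which is shared by the whole family of IL6-like cytokines. IL10 binds a receptor made of IL10RA, which binds the cytokine, and IL10RB, which is shared with other cytokines of the IL10 family. Both receptors use JAK kinases and STAT3, and in blood cells IL6 is known as an inflammatory cytokine and IL10 as one that restrains inflammation.

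The probes are 60-base oligonucleotides. The sequences are shown because each level below is the signal of these sequences alone. The 5 IL6 probes lie at chr10:7776269-7776332 on the plus strand of oryCun2, the build named in the file headers, and start at positions 986 to 990 of the transcript. They are each shifted by a single base and share 56 bases, so they are repeat measurements of the same stretch, and the first 30 shared bases are given. The 2 IL6ST probes lie on the minus strand at chr11:71908969-71909028 (probe 1, from position 2608 of the transcript) and chr11:71908889-71908948 (probe 2, from position 2688). The ends of the IL10 probe are 955 bases apart on the genome, at chr16:65583372-65584326 on the plus strand, so that it spans an intron of IL10. The files give no genome position for the IL10RA probe, which starts at position 1406 of its transcript. Sequences are written 5′ to 3′ as the files give them.
IL6, shared by the 5 probes: ccaaatcttttcttggaatgtgtaggctta
IL6ST, probe 1: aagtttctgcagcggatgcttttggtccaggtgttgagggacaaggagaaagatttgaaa
IL6ST, probe 2: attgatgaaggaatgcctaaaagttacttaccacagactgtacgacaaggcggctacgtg
IL10: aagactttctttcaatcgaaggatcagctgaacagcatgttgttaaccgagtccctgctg
IL10RA: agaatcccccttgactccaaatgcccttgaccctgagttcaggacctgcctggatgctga

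The level of a gene is the log2 median signal of its probes relative to the median spot of its array, controls left out, so that a level of 0 is the median spot and a difference of 1 is a doubling. Levels of different genes rest on different probes and are not compared with each other. On the 24 arrays 51.4 to 62.3% of the non-control spots were well above background. None of the 24 arrays had IL6, IL6ST or IL10RA at background, and IL10 was well above it on 21. The arrays of a group were alike, with a median correlation with the rest of their group of 0.977 to 0.992 on 23 arrays. The lowest value was 0.969, for the mock-stimulated sample of rabbit 5 at T24. On the first principal component, rabbit 2 after PMA-Ionomycin at T4 had a score of 178, against 17.1 to 36.4 in the other rabbits of that group. Calls on the 4 genes that change without either array are given with and without it.

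All 4 genes were called after PMA-Ionomycin at both times, and IL6 and IL10 after LPS at T24. Whether IL6 at both times and IL10 at T24 were called, after either stimulus, depended on the fit or on the rabbits kept. A gene was called when its adjusted p was under 0.05 in limma. At T4, 0 of the 4 genes were called after LPS (1 of 4, IL6, had an unadjusted p under 0.05 and was called with the rabbit as a replicate block, adjusted p = 0.0177), where 1.03% of all 28767 genes tested were called. At T24, 2 of the 4 were called after LPS, where 1.22% of all genes were. After PMA-Ionomycin 4 of the 4 were called at each time, against a background of 22.8% of all genes at T4 and 33.7% at T24. Between mock-stimulated samples of T24 and T4, 3 of the 4 were called, and 12.6% of all genes. With the rabbit as a replicate block, 1227 in place of 296 genes of the array (4.27%) were called after LPS at T4, and 750 in place of 352 (2.61%) at T24.

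**Figure D1:**
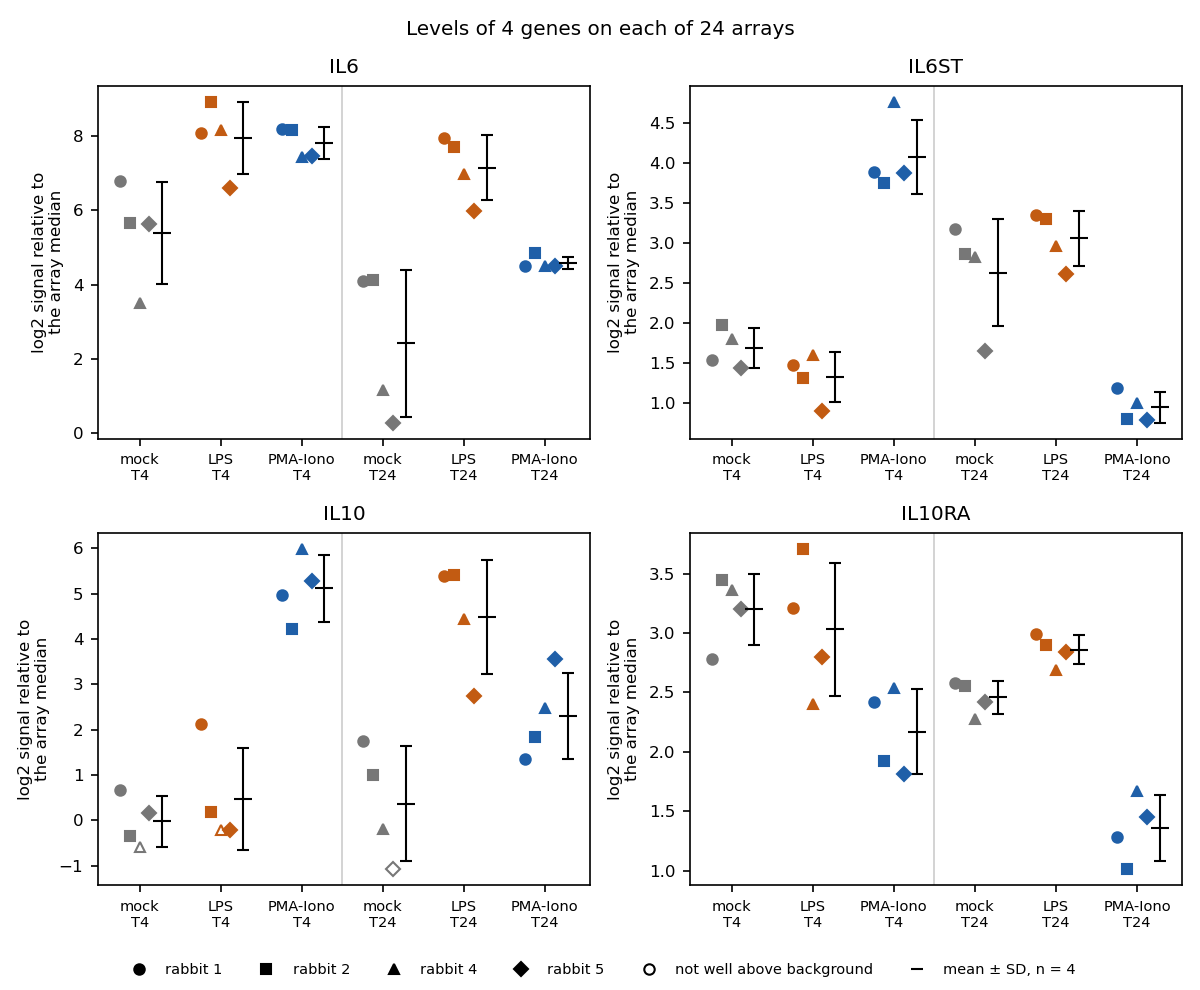
Log2 signal relative to the array median (vertical axis) of each gene in the 6 groups; each symbol is a rabbit, open symbols were not well above background, and bars are mean ± SD (n = 4 rabbits). IL6ST stood highest after PMA-Ionomycin at T4 (3.75 to 4.76) and lowest after it at T24 (0.79 to 1.19).

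IL6 was the gene with the widest spread among unstimulated samples. In mock-stimulated PBMCs at T4 its level in rabbits 1, 2, 4 and 5 was 6.78, 5.66, 3.50 and 5.62. At T24 it was 4.09, 4.13, 1.17 and 0.29 in the same order. IL6 thus fell in culture without any stimulus in all 4 rabbits, by 1.52 to 5.33, and the fall was called (log2 difference -2.96 ± 0.72, standard error, adjusted p = 0.00634). Rabbits 1 and 2 kept a clearly higher level than rabbits 4 and 5 at T24, and the latter pair of samples lay on the same slide. It was -2.25 without the mock sample of rabbit 5 at T24 (adjusted p = 0.0288). Without rabbit 5 the difference was -2.18 (adjusted p = 0.0529, with a range of 0.000345 to 0.101 over all the alternatives).

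After LPS at T4, IL6 stood at 8.09, 8.91, 8.15 and 6.61 in rabbits 1, 2, 4 and 5, against the high and scattered levels of mock-stimulated cells. Every rabbit was above its own mock sample, by 0.98 to 4.65, but the lowest LPS sample was below the highest mock sample. The difference was 2.55 ± 0.72 (5.86-fold, 95% confidence interval of the log2 difference 1.06 to 4.05), and it was not called (adjusted p = 0.0816). With the rabbit as a replicate block, which sets each sample against its own animal, it was called (adjusted p = 0.0177). It was also called without the mock-stimulated sample of rabbit 5 at T24, which changes only the estimate of the spread (adjusted p = 0.0468, with a range of 0.0177 to 0.664 over all the alternatives).

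At T24, IL6 after LPS was 7.95, 7.69, 6.98 and 5.99 in rabbits 1, 2, 4 and 5. These levels were above every mock-stimulated sample of T24. The difference of 4.73 ± 0.72 (26.5-fold) was called (adjusted p = 6e-04), and it was 4.02 without the mock sample of rabbit 5 (adjusted p = 0.00181). It was not called when only the arrays compared were fitted (adjusted p = 0.0832, in a range of 1.44e-05 to 0.0832 over all the alternatives). IL6 after LPS averaged 7.94 ± 0.96 (SD, n = 4) at T4 and 7.15 ± 0.87 at T24 and the 2 groups overlapped, while the mock mean went from 5.39 ± 1.37 to 2.42 ± 1.98. With the slide as a block the difference was 4.66 (adjusted p = 0.00258), and within the 3 slides it ranged from 2.75 to 7.22. The change after LPS was larger at T24 than at T4 by 2.18 ± 1.02 (1.33 to 2.8 with a rabbit left out), and that difference was not called (adjusted p = 0.289).

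PMA-Ionomycin brought IL6 to nearly the same level in all rabbits. At T4 the levels were 8.18, 8.16, 7.44 and 7.45 in rabbits 1, 2, 4 and 5, all above the mock-stimulated samples. The difference from mock of 2.42 ± 0.72 (5.35-fold) was called (adjusted p = 0.0157). It was not called without rabbit 2 (2.39, adjusted p = 0.0623) or without rabbit 4 (1.91, adjusted p = 0.143), in a range of 0.0013 to 0.143 over all the alternatives.

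At T24 IL6 stood at 4.51, 4.84, 4.49 and 4.50 after PMA-Ionomycin, a narrow spread (SD 0.17, n = 4) beside that of mock-stimulated cells (SD 1.98). All 4 samples were above all mock samples, but rabbits 1 and 2 were only 0.42 and 0.70 above their own mock sample. The difference of 2.16 ± 0.72 (4.47-fold) was called (adjusted p = 0.0221). Rabbits 4 and 5, which had the lowest mock levels, gave the largest differences. The call was lost without rabbit 4 (1.78, adjusted p = 0.127), without rabbit 5 (1.48, adjusted p = 0.137) and without the mock sample of rabbit 5 alone (1.45, adjusted p = 0.12), in a range of 0.0023 to 0.137 over all the alternatives.

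Over the 6 groups, the mean level of IL6 was in the order LPS at T4, PMA-Ionomycin at T4, LPS at T24, mock at T4, PMA-Ionomycin at T24 and mock at T24. Neighbours in this order overlapped in their ranges, except PMA-Ionomycin and mock at T24. Each of the 5 probes gave the same calls as their mean, with log2 differences from 4.68 to 4.77 for LPS at T24.

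IL6ST, the signalling chain shared by all IL6-like cytokines, turned direction after PMA-Ionomycin. In mock-stimulated cells its level was 1.54, 1.98, 1.81 and 1.44 in rabbits 1, 2, 4 and 5 at T4 and 3.18, 2.86, 2.83 and 1.66 at T24. It therefore rose in culture without a stimulus by 0.94 ± 0.26 (1.92-fold, adjusted p = 0.0179), in 4 of 4 rabbits, with the smallest rise of 0.22 in rabbit 5. The rise was not called without rabbit 1 (0.71, adjusted p = 0.232), rabbit 2 (0.96, adjusted p = 0.102) or rabbit 4 (0.91, adjusted p = 0.0853), in a range of 0.000307 to 0.232 over all the alternatives.

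After PMA-Ionomycin at T4, IL6ST was 3.89, 3.75, 4.76 and 3.88 in rabbits 1, 2, 4 and 5, and no sample of any other group reached these levels. It was higher than in mock-stimulated cells by 1.77 to 2.95 in each rabbit, and by 2.38 ± 0.26 in the fit (5.19-fold, adjusted p = 3.19e-07). At T24 the levels were 1.19, 0.81, 1.00 and 0.79, all below the mock-stimulated samples of the same time. The difference was then -1.68 ± 0.26 (3.21-fold lower, adjusted p = 1.56e-05; -2.30 when the processed signal of the scanner files was used, each array at a common 75th percentile), with differences of -2.05 to -0.87 within rabbits.

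The change of IL6ST after PMA-Ionomycin at T24 was lower than that at T4 by -4.06 ± 0.37 (adjusted p = 2.12e-08; -4.79 with the processed signal), in 4 of 4 rabbits (-4.77 to -3.31). Of all genes, 22.6% had a called difference between the changes of both times after PMA-Ionomycin, and 2 of the 4 genes did, IL6ST and IL10. Both IL6ST probes gave these calls, with -4.16 and -3.96. The IL6ST calls at T4, at T24 and for their difference held in all 18 alternatives.

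After LPS, IL6ST overlapped the mock samples of the same time. Its levels were 1.48, 1.32, 1.61 and 0.90 in rabbits 1, 2, 4 and 5 at T4 and 3.35, 3.30, 2.97 and 2.62 at T24. The difference from mock was -0.37 at T4 (95% confidence interval -0.91 to 0.18, adjusted p = 0.575) and 0.43 at T24 (-0.12 to 0.98, adjusted p = 0.626). Each interval leaves out a log2 difference of 1 in either direction. Without the mock sample of rabbit 5 the T24 difference was 0.11 (adjusted p = 0.921). The order of the mean levels was PMA-Ionomycin at T4, LPS at T24, mock at T24, mock at T4, LPS at T4 and PMA-Ionomycin at T24, and only the first of these groups was clear of the range of its neighbour.

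**Figure D2:**
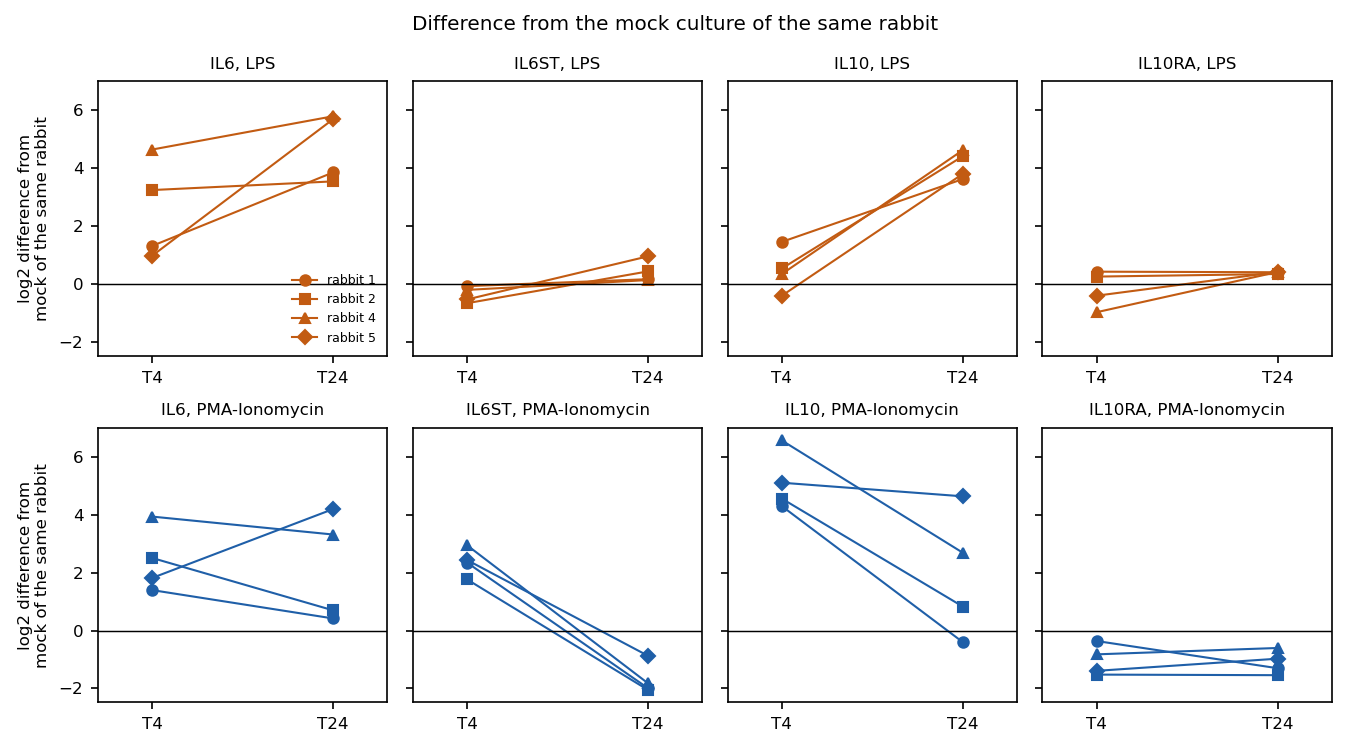
Log2 difference of each stimulated sample from the mock-stimulated sample of the same rabbit (vertical axis) at T4 and T24; each line is a rabbit, LPS in the upper row and PMA-Ionomycin in the lower. All 4 lines of IL6ST cross 0 after PMA-Ionomycin, and the lines of IL10 rise after LPS and fall after PMA-Ionomycin.

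IL10 was low without stimulation, and near the background in some rabbits. In mock-stimulated cells its level was 0.68, -0.35, -0.58 and 0.17 in rabbits 1, 2, 4 and 5 at T4 and 1.76, 1.00, -0.20 and -1.08 at T24. It was well above background on 3 of 4 arrays at each time, the exceptions being rabbit 4 at T4 and rabbit 5 at T24. The mock groups did not differ in the test (0.39, 95% confidence interval -0.95 to 1.73, adjusted p = 0.769). With a rabbit left out the difference was 0.07 to 0.93.

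IL10 responded early to PMA-Ionomycin and late to LPS. After PMA-Ionomycin at T4 it stood at 4.98, 4.21, 5.99 and 5.28 in rabbits 1, 2, 4 and 5, far above every mock-stimulated sample. The difference of 5.13 ± 0.65 (35.1-fold, adjusted p = 1.96e-06) was 6.38 with the processed signal (adjusted p = 4.17e-05). Each rabbit was above its own mock sample by 4.30 or more, and the size in rabbit 4 is uncertain because its mock sample was not well above background. After LPS at T4 the levels were 2.13, 0.19, -0.22 and -0.22, of which that of rabbit 4 was not well above background. Only rabbit 1 was clear of the mock samples, and the difference of 0.49 was not called (95% confidence interval -0.85 to 1.83, adjusted p = 0.77). It was 0.17 to 0.78 with a rabbit left out and 1.03 with the processed signal.

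At T24 the order of the stimuli was turned. After LPS IL10 was 5.39, 5.42, 4.43 and 2.74 in rabbits 1, 2, 4 and 5, all above the mock-stimulated samples. The difference from mock was 4.12 ± 0.65 (17.4-fold, adjusted p = 0.000792), and 5.34 with the processed signal (adjusted p = 0.00739). Within rabbits it lay between 3.63 and 4.63, where the value of rabbit 5 rests on a mock sample that was not well above background. It was not called without rabbit 4 (3.95, adjusted p = 0.0536), in a range of 0.000464 to 0.0649 over all the alternatives.

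After PMA-Ionomycin at T24 IL10 stood at 1.36, 1.83, 2.48 and 3.56 in rabbits 1, 2, 4 and 5. The order of the rabbits was the reverse of that in mock-stimulated cells, where rabbit 1 was highest. The sample of rabbit 1 was lower than its mock sample (-0.40) and that of rabbit 5 was higher by 4.64, against a mock sample not well above background. The fitted difference of 1.94 ± 0.65 (3.83-fold) was called (adjusted p = 0.0221), with groups that overlapped. It was 2.73 with the processed signal (adjusted p = 0.0385) and 2.72 without rabbit 1 (adjusted p = 0.00292). It was not called without rabbit 4 (1.69, adjusted p = 0.149), without rabbit 5 (1.04, adjusted p = 0.231) or without the mock sample of rabbit 5 alone (1.46, adjusted p = 0.102), in a range of 0.00292 to 0.231 over all the alternatives.

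The change of IL10 after LPS was larger at T24 than at T4 by 3.63 ± 0.92 (adjusted p = 0.04), in 4 of 4 rabbits (2.17 to 4.28), where 1.94% of all genes had a called difference of this kind and IL10 was the only one of the 4 genes. After PMA-Ionomycin the change at T24 was lower than that at T4 by -3.20 ± 0.92 (adjusted p = 0.0122), also in 4 of 4 rabbits (-4.70 to -0.47). The first of these calls was lost without rabbit 2 (3.55, adjusted p = 0.261), rabbit 4 (3.42, adjusted p = 0.26) or rabbit 5 (3.44, adjusted p = 0.0702), in a range of 0.0205 to 0.261 over all the alternatives. The second was lost without rabbit 2 (-3.02, adjusted p = 0.084) or rabbit 4 (-2.97, adjusted p = 0.0985), in a range of 0.00135 to 0.0985 over all the alternatives. In mean level of IL10 the groups followed the order PMA-Ionomycin at T4, LPS at T24, PMA-Ionomycin at T24, LPS at T4, mock at T24 and mock at T4, and all neighbours overlapped.

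IL10RA, the chain that binds IL10, was lower after PMA-Ionomycin at both times. In mock-stimulated cells its level was 2.78, 3.45, 3.36 and 3.20 in rabbits 1, 2, 4 and 5 at T4 and 2.58, 2.55, 2.28 and 2.42 at T24. After PMA-Ionomycin it was 2.42, 1.92, 2.54 and 1.81 at T4 and 1.28, 1.01, 1.67 and 1.45 at T24, in both cases below all mock-stimulated samples of the same time. In bulk samples such as these, fewer cells that carry a transcript and less of it per cell cannot be told apart.

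The difference of IL10RA from mock was -1.02 ± 0.22 at T4 (2.03-fold lower, adjusted p = 0.00104) and -1.10 ± 0.22 at T24 (2.14-fold lower, adjusted p = 0.000287), and both calls held in all the alternatives. These 2 changes differed by -0.08 (95% confidence interval -0.72 to 0.57, adjusted p = 0.933). IL10RA also fell in mock-stimulated culture between T4 and T24, by 0.74 on the log2 scale (standard error 0.22, adjusted p = 0.0257), in 4 of 4 rabbits. That call was lost without rabbit 2 (-0.69, adjusted p = 0.0736), rabbit 4 (-0.63, adjusted p = 0.104) or rabbit 5 (-0.73, adjusted p = 0.0999), in a range of 0.00328 to 0.104 over all the alternatives.

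After LPS, IL10RA stood at 3.21, 3.71, 2.40 and 2.80 in rabbits 1, 2, 4 and 5 at T4, which overlapped the mock-stimulated samples. At T24 it stood at 2.99, 2.90, 2.69 and 2.84, all above the mock samples, with nearly equal differences of 0.35 to 0.42 in each rabbit. The fitted differences were -0.17 at T4 (95% confidence interval -0.62 to 0.29, adjusted p = 0.767) and 0.40 at T24 (-0.06 to 0.85, adjusted p = 0.558). The first turned sign without rabbit 4 (0.10) and with the processed signal at a common 75th percentile (0.06), and the second was not called in any alternative. The order of the mean levels of IL10RA was mock at T4, LPS at T4, LPS at T24, mock at T24, PMA-Ionomycin at T4 and PMA-Ionomycin at T24. Of these neighbours, LPS and mock at T24 did not overlap, nor did PMA-Ionomycin at T4 and T24.

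**Figure D3:**
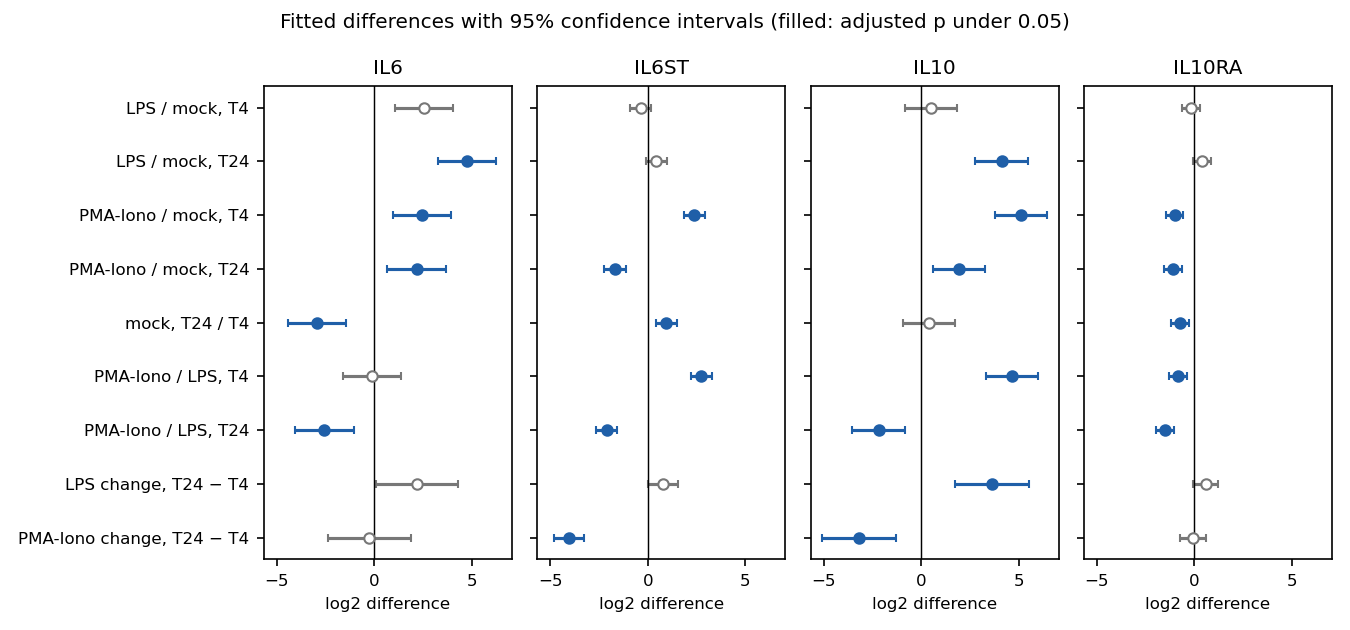
Fitted log2 difference (horizontal axis) with its 95% confidence interval for each gene in 9 comparisons; filled points have an adjusted p under 0.05. All 4 genes are filled after PMA-Ionomycin at both times, with IL10 at 5.13 at T4 and IL6ST turning from 2.38 to -1.68.

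Set against each other at the same time, PMA-Ionomycin and LPS differed in 3 of the 4 genes at T4, against 26.8% of all genes, and in 4 of the 4 at T24, against 36.2% of all genes. These comparisons use the same stimulated samples as those above. At T4, the IL6 difference of -0.13 was not called (95% confidence interval -1.63 to 1.36, adjusted p = 0.932), and its sign turned without rabbit 2 (0.07) or rabbit 4 (0.06). The interval includes a log2 difference of 1 in either direction. IL6ST and IL10 were higher after PMA-Ionomycin by 2.74 ± 0.26 (adjusted p = 3.66e-08) and 4.65 ± 0.65 (adjusted p = 6.53e-06). The latter was 5.25 without rabbit 1 and 5.35 with the processed signal. IL10RA was lower by -0.86 ± 0.22 (adjusted p = 0.00443), in 3 of 4 rabbits, and this was not called without rabbit 2 (-0.55, adjusted p = 0.0924, in a range of 0.000125 to 0.0924 over all the alternatives).

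At T24 all 4 genes were lower after PMA-Ionomycin than after LPS. IL6 differed by -2.57 ± 0.72 (adjusted p = 0.0062), IL6ST by -2.11 ± 0.26 (adjusted p = 5.62e-07) and IL10RA by -1.50 ± 0.22 (adjusted p = 5.53e-06), each in 4 of 4 rabbits. IL10 differed by -2.18 ± 0.65 (adjusted p = 0.00926) in 3 of 4 rabbits, rabbit 5 being higher after PMA-Ionomycin by 0.82. IL6 was at -3.18 after quantile normalization or normexp, and IL6ST at -2.75 with the processed signal. The IL10 call was lost without rabbit 1 (-1.57, adjusted p = 0.0724) or rabbit 2 (-1.72, adjusted p = 0.129), in a range of 0.000281 to 0.129 over all the alternatives.

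The partners of these genes were followed through 8 lists with 81 genes, of which 57 were found by name on the array. Some of the 57 lay at background in both groups of a comparison, where a change could be missed. After LPS, 0 of the 57 were called at T4 in limma and 1 at T24, beside 1.03% and 1.22% of all genes. At these times 7 and 11 of the 57 had an unadjusted p under 0.05, beside 4005 and 3121 of all 28767 genes. The gene called at T24 was MYC, a growth regulator and STAT3 target, which was lower by -0.92 ± 0.19 (adjusted p = 0.0115). With the rabbit as a replicate block 3 (5.26%) were called at T4 and 5 (8.77%) at T24, beside 4.27% and 2.61% of all genes, so that the share at T4 was near that of all genes. Those at T4 were NFKBIZ (1.38), which aids IL6 transcription, OSMR (0.51, with 1 of its 2 probes at background) and CEBPB (-0.75). Those at T24 were MYC, OSM (1.33), BCL3 (0.75), IL10RB (0.77) and SOCS3 (1.58), the feedback inhibitor of gp130 signals.

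After PMA-Ionomycin at T4, 23 of the 57 were called higher and 5 lower, that is 40.4% and 8.77%, beside 13.5% and 9.35% of all genes. At T24, 18 were called higher and 11 lower, or 31.6% and 19.3%, beside 22.2% and 11.5% of all genes. The T24 count depended on the scaling, with 11 higher and 12 lower after quantile normalization or normexp, 14 and 15 with the processed signal and 15 and 15 with the deposited table. At T4 the same scalings gave 22 or 23 higher and 5 to 8 lower. The median difference of the 57 was 0.16 at T4 and 0.15 at T24, beside 0.05 and 0.03 over all genes. Of all the calls, 59.0% were higher at T4 and 65.9% at T24, and these shares moved to between 47.0 and 50.6% at T4 and between 46.3 and 53.0% at T24 with other scalings of the arrays.

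**Figure D4:**
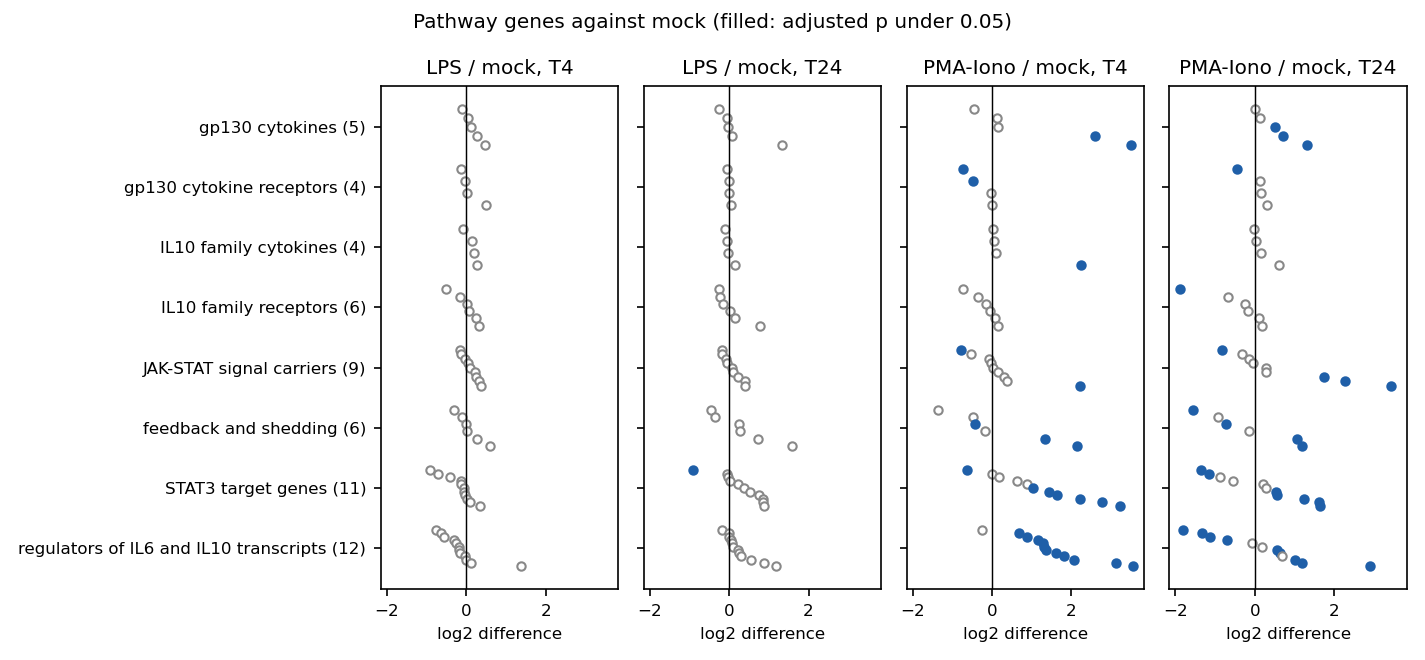
Log2 difference from mock (horizontal axis) of each found gene of the 8 lists (rows, number of genes in parentheses) in 4 comparisons; filled points have an adjusted p under 0.05. After PMA-Ionomycin at T4, 11 of the 12 regulators of IL6 and IL10 transcripts were called higher, beside 13.5% of all genes. None was after LPS in the fit plotted, which has no block.

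Among the other cytokines that signal through gp130, 2 of 5 were called higher after PMA-Ionomycin at T4, beside 13.5% of all genes. LIF was higher by 3.49 ± 0.20 (adjusted p = 1.13e-11). Its mock-stimulated samples were well above background on only 1 of 4 arrays, so that the size of the difference is uncertain. OSM was higher by 2.60 ± 0.45 (adjusted p = 0.000107). At T24, 3 of 5 were called higher, beside 22.2% of all genes. They were CLCF1 (0.72, its size uncertain with 1 of 4 mock arrays well above background), OSM (1.31) and IL27 (0.51). OSM was not called after quantile normalization (1.09) or normexp (0.92), and IL27 was called with none of the other scalings (0.25 to 0.37). LIF was at 0.12 at T24.

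Of the 4 other receptor chains for these cytokines found, IL6R, the chain that binds IL6, was lower by -0.74 ± 0.13 at T4 (adjusted p = 9.7e-05) and by -0.46 ± 0.13 at T24 (adjusted p = 0.00603). OSMR, which pairs with gp130 to bind oncostatin M, was called lower at T4 (-0.47), with at least 1 of its 2 probes well above background on all arrays but both on only 2 of 4 after PMA-Ionomycin and 0 of 4 in mock-stimulated cells. Its difference went to 0 when each array's processed signal was set to a common 75th percentile. Of the 6 other receptor chains of the IL10 family, IL10RB, the partner of IL10RA, was called lower at T24 (-1.88 ± 0.30, adjusted p = 1.94e-05), beside -0.72 at T4 (adjusted p = 0.0955). Both chains of the IL10 receptor and the IL6-binding chain were thus lower at T24 together with IL6ST. LIFR, IL20RA and IL20RB were at background on every array. IL22RA2 and IFNLR1 were well above it on at most 1 of 4 arrays of the mock and PMA-Ionomycin groups. A change of these chains could be missed. Of the 4 other IL10 family cytokines, IL22, which acts on epithelia, was called higher at T4 (2.25 ± 0.45, adjusted p = 0.00052). Any of its 5 probes was well above background on only 1 of 4 mock arrays, so that the size of the difference is uncertain. IL19, IL20 and IL26 were well above background on at most 1 of 4 arrays of a group.

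Of the 9 genes that carry the JAK-STAT signal, 1 was called higher and 1 lower at T4, and 3 higher and 1 lower at T24. These are 11.1% and 11.1% at T4 and 33.3% and 11.1% at T24, beside 13.5% and 9.35% of all genes at T4 and 22.2% and 11.5% at T24. PTPN11, the phosphatase SHP2 that links gp130 to the MAP kinases, was higher by 2.21 ± 0.17 at T4 (adjusted p = 1.46e-09) and 2.26 ± 0.17 at T24 (adjusted p = 2.61e-10). JAK1, the kinase bound to gp130 and IL10RA, was lower by -0.79 and -0.83. STAT4, which serves IL12, was higher at T24 by 3.42 ± 0.26 (adjusted p = 2.63e-10). STAT3 was not called in either direction. TYK2 and GAB1 were not well above background on any array, where a change could be missed.

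Of the 6 genes of feedback and receptor shedding, 2 were called higher and 1 lower at T4, and 2 and 2 at T24. Of all genes, 13.5% and 9.35% were called higher and lower at T4, and 22.2% and 11.5% at T24. SOCS3 was called higher at T4 (2.14 ± 0.41, adjusted p = 0.000338) and was at -0.16 at T24. TIMP3, an inhibitor of the proteases that shed receptors, was higher at both times (1.33, and 1.19 with 2 of 4 mock arrays well above background), and ADAM10, such a protease, was lower at both (-0.43 and -0.72). SOCS1 was called higher at T24 (1.07) and SOCS2 lower (-1.55), and the call of SOCS1 was lost after quantile normalization (0.42) and normexp (0.43).

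Of the 11 STAT3 target genes, 6 were called higher and 1 lower at T4, and 5 higher and 2 lower at T24. These are 54.5% and 9.09% at T4 and 45.5% and 18.2% at T24. Of all genes, 13.5% and 9.35% were called higher and lower at T4, and 22.2% and 11.5% at T24. With other scalings the T24 count was 3 or 4 higher and 3 lower, and MCL1, a survival factor, went from 0.56 to -0.01 after quantile normalization and -0.02 after normexp. MYC was higher by 3.23 ± 0.19 at T4 (adjusted p = 1.64e-11) and 1.61 ± 0.19 at T24 (adjusted p = 2.85e-07), in the direction opposite to that after LPS. NFIL3, which drives IL10 in T cells, was higher by 2.78 and 1.64. BCL2L1, a survival factor, was at least 4.60-fold higher at T4 (adjusted p = 3.46e-07), as no mock-stimulated sample was well above background, and higher by 1.24 at T24, where 1 of 4 mock samples was. FOSL1, an AP-1 subunit, was higher by 1.63 at T4, with 2 of 4 mock samples well above background. BCL3, a modulator of NF-kappaB, was lower at T24 (-1.15).

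The 12 regulators of IL6 and IL10 transcripts gave the clearest count, with 11 called higher and 0 lower at T4 after PMA-Ionomycin. Of all genes, 13.5% were called higher and 9.35% lower. With any of the other scalings 10 or 11 of the 12 were called higher. ATF3 was higher by 3.56 ± 0.29 (adjusted p = 3.78e-09), BATF by 3.12 ± 0.28 (adjusted p = 1.47e-08), IRF4 by 2.07 ± 0.22 (adjusted p = 1.85e-07) and REL, an NF-kappaB subunit, by 1.15 ± 0.13 (adjusted p = 2.47e-07). ATF3 restrains IL6 transcription, and BATF and IRF4 act together on genes of activated lymphocytes. At T24, 5 were called higher and 4 lower, beside 22.2% and 11.5% of all genes. With the other scalings 3 or 4 were higher and 4 lower, and IRF4 (0.57) was not called. BATF (2.91), ELAVL1 (1.19), an RNA-binding protein that stabilises transcripts, and REL (1.01) were higher, and NFKBIZ was lower (-1.82).

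Over the 24 arrays, the genes with a pattern most like that of each of the 4 were found among 6282 genes that had a symbol and that at least 1 group measured well above background in every rabbit. For IL6 they were CCL4 (Pearson r = 0.913), a chemokine of monocytes and lymphocytes, TNF (0.881) and PRRG4 (0.847). For IL6ST they were LONRF3 (0.930), FAM107B (0.911) and VPS26A (0.905). For IL10 they were SLAMF1 (0.893), a receptor of activated lymphocytes and phagocytes, MYO1E (0.847) and POMT2 (0.846). For IL10RA they were REC8 (0.882), ADORA3 (0.877) and STK24 (0.876). The 24 points share rabbits, groups and slides, and r is given as a description.

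The labelled cell type was checked against markers of blood cells. Of the markers found by name, 7 of 8 of B cells and 6 of 8 of T cells were well above background on at least 23 of the 24 arrays, and 6 of 10 of monocytes were on all 24. CD4 was so on 0 of 24 arrays and CD28 on 4, and of the platelet markers TUBB1 was on 24, GP9 on 22, TREML1 on 14, ITGA2B on 11 and GP1BA on 0. Cell type markers also changed after PMA-Ionomycin. Of all genes, 13.5% were called higher and 9.35% lower after it at T4, and 22.2% and 11.5% at T24. At T24, 8 of 10 monocyte markers were called lower and 1 higher, with a mean level of the list of 1.35 to 1.84 after PMA-Ionomycin and 3.03 to 3.75 in mock-stimulated cells. CD14 was at -3.27 and CSF1R at -3.29. Of the neutrophil markers, some of which monocytes also express, 6 of 7 were called lower at T24. At T4, 4 of 10 monocyte, 3 of 7 neutrophil, 4 of 8 B cell and 4 of 5 platelet markers were called lower, and 1 of 3 NK cell markers. At both times 1 B cell marker, BLK, was called higher (1.56 and 1.75), and at T24 4 of 8 B cell markers were lower and 3 of 3 NK cell markers higher. Of the 8 T cell markers, 1 was called higher at T4 (CD28), and 1 higher (CD5) and 1 lower (CD4) at T24. CD28 and CD4 were well above background on only 4 and 0 of the 24 arrays. Monocyte markers moved the other way in mock-stimulated culture, where 6 of 10 were higher at T24 than at T4 and 1 was lower. There, 3 of 7 neutrophil markers were higher and 4 of 5 platelet markers lower. Of all 28767 genes, 2137 were called higher and 1480 lower in that comparison. The falls at T24 of IL6ST, IL10RA, IL6R and IL10RB after PMA-Ionomycin ran in the direction of the monocyte markers. The falls of IL10RA (-1.02) and IL6R (-0.74) after it at T4 and the rise of IL6ST in mock-stimulated culture also ran in the direction of these markers. The rises of IL6ST, IL6 and IL10 after PMA-Ionomycin at T4, those of IL6 (2.16) and IL10 (1.94) at T24 and the falls of IL10RA and IL6 (-2.96) in mock-stimulated culture ran against it. The part of the cell types in these changes was not tested. After LPS at T4, 2 of 10 monocyte markers were called lower, CD14 (-1.55) and CSF1R (-1.44), and 5 had an unadjusted p under 0.05. Of all genes, 1.03% were called after LPS at T4 and 1.22% at T24. After LPS at T24, where IL6 and IL10 rose, 0 of 10 monocyte markers were called higher and 1 lower in limma (4 had an unadjusted p under 0.05), and 0 of 8 T cell and 0 of 8 B cell markers were called (1 and 0). Of the 7 neutrophil markers, S100A9 was called higher (2.35) and CAMP (-1.92) and MPO (-1.63) lower, and 6 had an unadjusted p under 0.05. Their part in the rise of IL6 and IL10 was not tested.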

How the data were processed

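PBMC RNA from 24 cultures of 4 rabbits was labelled with Cy3 and hybridised to custom one-colour Agilent arrays on 3 slides of 8, each slide holding all 6 groups. The authors deposited scanner intensity values per spot from Feature Extraction 10.7.3.1. Their deposited table holds log2 median signals minus each array's mean of all its spots, as a comparison with the scanner values showed (largest difference 5e-09), and served as an alternative. From the scanner files the log2 median signal was taken, with outlier spots left out, centred on the median of the 61657 non-control spots, and averaged per probe and per gene. Of the 42089 probes, 20940 kept the identifier of the files and the others were named by RefSeq accession, gene number, gene name or the given list of added genes. Background was not subtracted. The genes were fitted with a mean per group in limma 3.58.1 (R 4.3.3), two-sided, with Benjamini-Hochberg adjustment over 28767 genes, and steps were tested on simulated data. The number of arrays limits the precision.

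Rabbit numbers in the labels pair the samples, since each animal gave cells to all groups. Deviations from the group means had a median correlation of 0.228 in pairs of arrays of the same rabbit and -0.0753 otherwise. Other settings tried were quantile normalization, a common 75th percentile of the processed signal, normexp (offset 50) with quantile normalization, the deposited log2 table, dim probes left out, outlier spots kept, only the arrays compared, the rabbit or slide as a block, eBayes with trend and robust, single probes and each rabbit left out. Leaving out either array that stood apart was chosen after seeing the data. Genes of the lists were named by their smallest adjusted p, at most 4 called genes per list and comparison, and the 3 genes most correlated with each of the 4 genes. The genes and lists were chosen with earlier results of these data known. Motifs in promoters were not analysed here, and the values of 1 gene of the lists are not reported here.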

Additional observations from a re-analysis of the deposited data

Results flagged for a closer look

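In the 24 sets of 4 samples (4 genes in 6 groups), 2 had a sample far from the others by Dixon's test, where chance gives about 5% of sets. IL6 after PMA-Ionomycin at T24 stood at 4.84 in rabbit 2, above the other rabbits, which lay within 4.49 to 4.51. IL6ST after PMA-Ionomycin at T4 stood at 4.76 in rabbit 4, above 3.75 to 3.89 in the other rabbits. In each case the sample was the highest of its group and its distance was in the direction of a higher level.

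Changes from mock that differed between T4 and T24 by the test of the difference itself in limma were found for IL6ST and IL10. The change of IL10 after LPS was larger at T24 by 3.63 (adjusted p = 0.04). After PMA-Ionomycin the change at T24 was lower than that at T4 by -4.06 for IL6ST (adjusted p = 2.12e-08) and by -3.20 for IL10 (adjusted p = 0.0122).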

How the results depend on the processing

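Of 657 values computed again under an alternative, 608 kept their direction and side of the threshold. Of 36 results on the 4 genes, 19 did so under every alternative run. These counts include results that were not called and stayed so. For IL10 and IL10RA the single-probe setting repeats the value of their only probe, and the IL6 probes share 56 of 60 bases, so these alternatives say little. Among the 4 genes, the rabbit as a replicate block changed only the call of IL6 after LPS at T4 (2.55, adjusted p = 0.0177), which was also called without the mock sample of rabbit 5 at T24. With only the arrays compared, calls were lost for IL6 (4.73) and IL10 (4.12) after LPS at T24, IL6 after PMA-Ionomycin at T24 (2.16), IL6 (-2.96) and IL6ST (0.94) in mock culture, and the time difference of IL10 after LPS (3.63), in fits with fewer samples. Quantile normalization lost IL6 (1.69) and IL10 (1.66) after PMA-Ionomycin at T24 and IL6ST in mock culture (0.84), and normexp lost the same calls (1.58, 1.44 and 0.80). With the processed signal IL6ST in mock culture (0.94) and the time differences of IL10 after LPS (4.32) and PMA-Ionomycin (-3.65) were lost, and IL10RA after LPS at T4 turned to 0.06. The time difference of IL10 after LPS was also lost with the deposited table (3.64) and with trend and robust (3.63). The causes were not tested.

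Leaving out rabbits or single arrays gave, after LPS, 1.85 to 3.07 for IL6 at T4, -0.37 to 0.10 for IL10RA at T4, 4.02 to 5.12 for IL6 at T24 and 3.64 to 4.29 for IL10 at T24. After PMA-Ionomycin it gave 1.91 to 2.76 for IL6 at T4, 1.45 to 2.74 for IL6 at T24 and 1.04 to 2.72 for IL10 at T24. In mock culture it gave -3.45 to -2.18 for IL6, 0.71 to 1.26 for IL6ST and -0.92 to -0.63 for IL10RA. PMA-Ionomycin against LPS gave -0.46 to 0.07 for IL6 and -1.19 to -0.55 for IL10RA at T4 and -3.19 to -1.57 for IL10 at T24. The time difference was 3.15 to 4.12 for IL10 after LPS and, after PMA-Ionomycin, -1.14 to 0.26 for IL6, -4.10 to -2.70 for IL10 and -0.24 to 0.21 for IL10RA. IL6 turned sign without rabbit 2 (0.07) or 4 (0.06) between the stimuli at T4 and without rabbit 2 (0.26) in its time difference, and IL10RA without rabbit 4 (0.10) after LPS and rabbit 1 (0.21) in its time difference.

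Of the 57 pathway genes, 0 to 1 were called after LPS at T4 and at T24 with a rabbit left out, 3 and 5 with the block, and at T24 2 with dim probes left out and 0 with only the arrays compared. Among all genes, 296 were called after LPS at T4, against 114 after quantile normalization, 12 with the processed signal, 105 with normexp, 71 with the deposited table, 114 with trend and robust, 0 with only the arrays compared, 1227 with the block and 0 to 119 without a rabbit. At T24 352 were called, against 47, 750 and 85 to 610 for the last 3 of these. For the time difference after LPS 559 were called, against 175 with the processed signal, 218 with only the arrays compared, 1655 with the block and 7 to 400 without a rabbit. In mock culture 3617 were called, and 2269 to 2366 without rabbit 1, 2 or 4. Without the array of rabbit 2 after PMA-Ionomycin at T4, 532 genes were called after LPS at T4 and 862 for the time difference, and the latter went to 1208 without the mock array of rabbit 5 at T24. The processed signal put the median of all genes at -0.26 (0.03 as reported) after PMA-Ionomycin at T24, and relative to that median IL6ST was at -2.05 to -1.64 and IL10RA at -1.34 to -1.13 over the scalings. IL10 without stimulation lay near background in some rabbits, which limits its mock levels.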
